A study of Mus musculus with 6 samples.

Results

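NFAT, EGR and NR4A factors, with ATF3 and IER3, are products of genes that T cells switch on or mobilise soon after the antigen receptor is engaged. The 10 genes described here are Nfatc1, Nfatc2, Egr1, Egr2, Egr3, Nr4a1, Nr4a2, Nr4a3, Atf3 and Ier3. They were listed by name as activation-induced factors downstream of the T cell receptor, with no measured value in the rule. Earlier results of these data were known when the list was made. The members were found by symbol among 46517 gene identifiers. All 10 passed the filter on low counts, which left 12407 genes to test.

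The libraries are poly(A) RNA-seq of CD8 T cells purified as naive cells from spleens and lymph nodes of C57BL/6J mice. In both groups the cells were stimulated for 3 days on plates coated with 5 μg/mL antibody to CD3, with 0.5 μg/mL antibody to CD28 and 100 units/mL IL-2. The 3 libraries of the IL-3 basophil supernatant group received, from day 1 to day 2, the supernatant of sorted basophils cultured over 2 days in IL-2 plus 3 ng/mL IL-3. The 3 libraries of the PBS basophil supernatant group received supernatant of basophils kept with IL-2 and PBS. The labels do not say whether the added IL-3 was removed before transfer, so its own action and that of basophil products cannot be told apart. Whether the replicates are separate mice or cultures is not stated either, and the p-values cover only the spread among these 6 libraries, which may be technical.

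When the T cell receptor binds its ligand, calcium enters the cell and the phosphatase calcineurin frees NFAT proteins to enter the nucleus, while the ERK kinases act through SRF and its partners on the EGR genes. NFAT acts with AP-1 on cytokine genes, and on its own favours a programme of restraint in which EGR2, EGR3 and the NR4A nuclear receptors take part. ATF3 belongs to the ATF/CREB family and is induced by stress kinases and by the integrated stress response, and IER3 is an early response protein of NF-kB and growth factor signalling that modulates survival.

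Total expected counts were 19283416 to 22174902 in the IL-3 supernatant libraries and 17377052 to 18753617 in the PBS supernatant libraries, so every IL-3 supernatant library was the deeper one, and values were scaled for depth. PBS supernatant replicate 2 stood farthest out on the second principal component, which held 14.7% of the variance of log2 CPM (CPM, counts scaled to library size with TMM factors). Summed CPM of 5 T cell markers were 1462 to 1538 with IL-3 supernatant and 2040 to 2086 with PBS supernatant. Summed CPM of Cd8a and Cd8b1 were 570 to 624 with IL-3 supernatant and 1083 to 1182 with PBS supernatant, and all genes of both lists fell. Of the CD4 T cell markers, Zbtb7b rose, with 18.0 ± 1.29 CPM in IL-3 supernatant libraries and 6.36 ± 1.72 CPM in PBS supernatant libraries (SD, n = 3 each; log2 fold change 1.498, edgeR adjusted p = 2.7e-06). Cd4 itself was too low to be tested, with 0 to 0.495 CPM in IL-3 supernatant libraries and 0.445 to 0.831 CPM in PBS supernatant libraries. The part of these shifts in the results below was not tested. Of 8 basophil and mast cell markers, 4 (Mcpt8, Fcer1a, Ms4a2 and Prss34) had no count in any library, and the 8 summed to 0.153 to 0.991 CPM with IL-3 supernatant and 0.277 to 0.342 CPM with PBS supernatant. The 8 markers of macrophages, monocytes and dendritic cells summed to 1.67 to 2.96 CPM with IL-3 supernatant and 1.94 to 2.96 CPM with PBS supernatant, mostly from Cd68, the only one tested, which did not pass (edgeR adjusted p = 0.78). Of the B cell markers only Cd79b could be tested, at 2.42 to 2.75 CPM with IL-3 supernatant and 2.23 to 2.94 CPM with PBS supernatant, and it did not pass (edgeR adjusted p = 0.90). Ms4a1, Lyz2, Csf1r, Adgre1, Ncr1 and Klrb1c, markers of these cells and of NK cells, each had at most 0.255 CPM in any library. The 3 erythroid markers summed to at most 0.315 CPM with IL-3 supernatant and 0.556 CPM with PBS supernatant. The NK cell list summed to 10.9 to 12.4 CPM with IL-3 supernatant and 38.0 to 44.4 CPM with PBS supernatant, through Eomes, its only tested gene, which fell and is also a factor of CD8 T cells. In bulk libraries, fewer cells with a transcript and less of it per cell cannot be told apart.

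With IL-3 supernatant the early factors did not move as a block. Ier3, Atf3, Egr2 and Nr4a2 rose, Egr3, Nfatc1 and Nfatc2 fell, and Egr1, Nr4a1 and Nr4a3 did not pass the test. The rises were 4.42-fold for Ier3, 3.81-fold for Atf3, 1.56-fold for Egr2 and 1.24-fold for Nr4a2, and the fold changes of the genes that fell were 0.347 for Egr3, 0.627 for Nfatc1 and 0.899 for Nfatc2. Calls use edgeR's quasi-likelihood test over all 12407 genes with a Benjamini-Hochberg threshold of 0.05. It called 7 of the 10 members, 4 higher and 3 lower, and 30.9% of all tested genes, 14.8% higher and 16.1% lower. Atf3 and Ier3 rose and Egr3 fell by 2-fold or more, as did 4.34% (higher) and 3.44% (lower) of all tested genes. In 7 of the 10 members the CPM values of the groups did not overlap, 4 above and 3 below, and the same held for 43.6% of all tested genes, 21.0% above and 22.6% below. The median absolute log2 fold change was 0.48 in the 10 members and 0.20 in all tested genes.

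**Figure D1:**
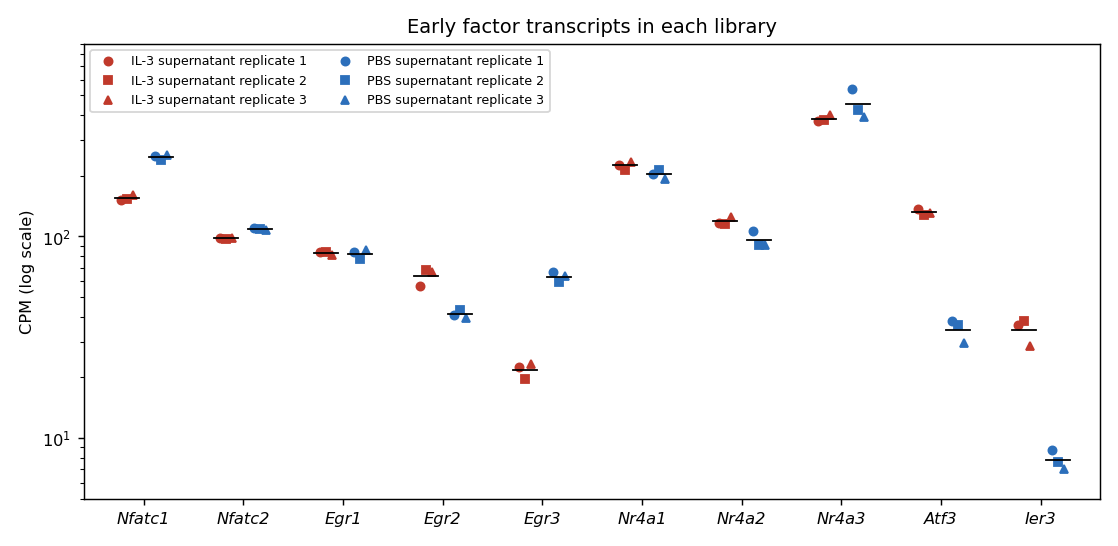
CPM of each early factor (log axis) in the 3 IL-3 supernatant libraries (red, left) and the 3 PBS supernatant libraries (blue, right), with replicates 1, 2 and 3 as circle, square and triangle and a black line at the group mean. Atf3, Ier3 and Egr2 stand higher with IL-3 supernatant with no overlap, Egr3 and Nfatc1 stand lower with no overlap, and the groups overlap in Egr1, Nr4a1 and Nr4a3.

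Nfatc1 encodes the inducible NFAT protein of T cells, which activates its own gene. It lies on chromosome 18 (ENSMUSG00000033016, 80606205 to 80713071, minus strand, GRCm38). Its transcript stood at 152, 153 and 161 CPM in IL-3 supernatant replicates 1, 2 and 3, against 249, 240 and 254 CPM in PBS supernatant replicates 1, 2 and 3. The highest IL-3 supernatant library was far below the lowest PBS supernatant library. Nfatc1 fell, at a log2 fold change of -0.67 with an SE of 0.05 (edgeR adjusted p = 3.7e-08).

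Nfatc2, on chromosome 2 (ENSMUSG00000027544, 168476410 to 168601657, minus strand), encodes the NFAT protein that resting T cells already hold in the cytoplasm. Its values were 98.8, 96.6 and 98.1 CPM with IL-3 supernatant and 110, 109 and 108 CPM with PBS supernatant. The groups did not overlap, but the gap was small, with -0.15 on the log2 scale and an SE of 0.05 (edgeR adjusted p = 0.042). That call was lost under 15 of 17 alternatives, including each of the 6 fits that leave out 1 library (adjusted p from 0.055 to 0.14). Nfatc3, a related NFAT gene outside the 10, fell as well, with 178 ± 6.26 CPM in IL-3 supernatant libraries and 208 ± 4.42 CPM in PBS supernatant libraries (SD, n = 3 each; log2 fold change -0.23, edgeR adjusted p = 0.0034). Its call was lost in the 3 limma fits on TPM of 5 libraries (adjusted p from 0.063 to 0.071). In TPM, which is scaled for transcript length, Nfatc1, Nfatc2 and Nfatc3 summed to 154 ± 2.04 with IL-3 supernatant and 202 ± 8.66 with PBS supernatant. Nfatc1 was 2.12 to 2.36 times as abundant as Nfatc2 in TPM with IL-3 supernatant and 3.11 to 3.44 times with PBS supernatant.

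The EGR genes encode zinc finger factors of the same family, and here 1 of the 3 did not pass, 1 rose and 1 fell. Egr1, on chromosome 18 (ENSMUSG00000038418, 34859823 to 34864984, plus strand), stood at 83.7, 83.6 and 81.4 CPM with IL-3 supernatant and 84.0, 76.9 and 85.4 CPM with PBS supernatant. The groups overlapped fully, and the fitted difference was 0.01 in log2 units with an SE of 0.06 (edgeR adjusted p = 0.90), turning to -0.02 without PBS supernatant replicate 2.

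Egr2, on chromosome 10 (ENSMUSG00000037868, 67535475 to 67542188, plus strand), is a factor of T cell anergy and of the control of effector cells. Its transcript was at 57.1, 68.0 and 66.6 CPM with IL-3 supernatant, against 40.7, 43.1 and 39.5 CPM with PBS supernatant. Every IL-3 supernatant library was above every PBS supernatant library, and replicate 1 was the lowest with IL-3 supernatant. Egr2 rose by 0.64 on the log2 scale, with an SE of 0.08 (edgeR adjusted p = 1.0e-05). Egr3, on chromosome 14 (ENSMUSG00000033730, 70077203 to 70082614, plus strand), acts with Egr2 in the same programme. It was at 22.7, 19.7 and 23.2 CPM with IL-3 supernatant, against 66.3, 59.2 and 63.3 CPM with PBS supernatant. The groups were far apart, at -1.53 in log2 units with an SE of 0.09 (edgeR adjusted p = 6.5e-10), which lies at the 1.93 percentile of all tested genes.

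Egr2 and Egr3 moved in opposite directions, and the make-up of the EGR transcripts did not overlap between the groups. The ratio of Egr2 to Egr3 in TPM was 1.34, 1.81 and 1.54 in the IL-3 supernatant libraries, against 0.299, 0.377 and 0.298 in the PBS supernatant libraries. Egr3 made up 23.7 ± 2.00% of the summed EGR TPM with IL-3 supernatant and 52.9 ± 1.22% with PBS supernatant (SD, n = 3 each). Egr2 made up 36.8 ± 2.65% with IL-3 supernatant and 17.1 ± 2.01% with PBS supernatant. The sum of the 3 was lower with IL-3 supernatant, at 124, 126 and 133 TPM, against 172, 150 and 164 TPM with PBS supernatant. Egr4, the fourth gene of the family, was too low to be tested, with 5 to 9 counts per IL-3 supernatant library and 9 to 30 counts per PBS supernatant library.

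**Figure D2:**
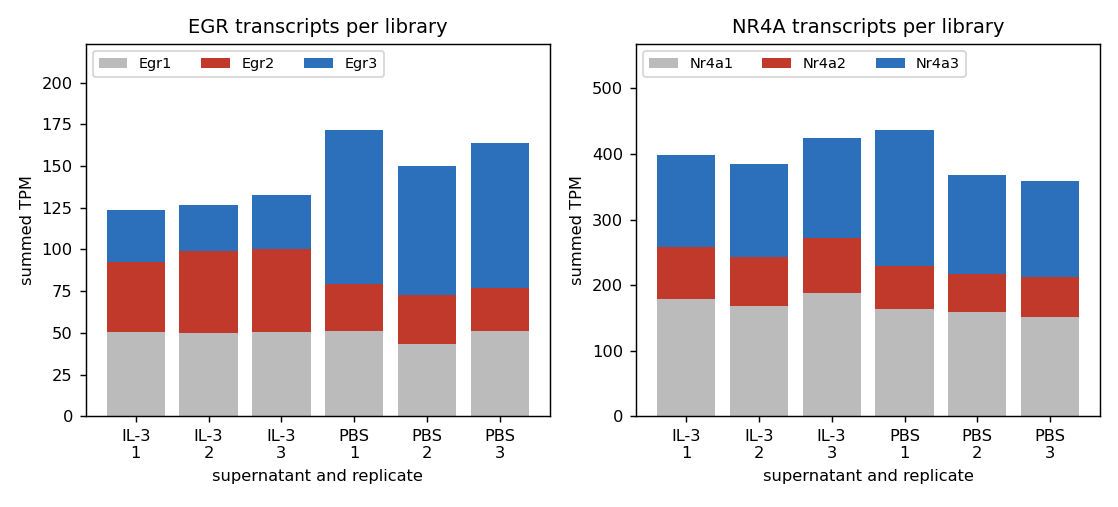
TPM of the 3 EGR genes (left panel) and the 3 NR4A genes (right panel), stacked, in each of the 3 IL-3 supernatant and 3 PBS supernatant libraries; PBS supernatant replicate 2 is summed from isoform values. Egr3 is the largest part of each PBS supernatant bar and the smallest part of each IL-3 supernatant bar, while the NR4A bars overlap in height between the groups.

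NAB1 and NAB2 bind EGR proteins and repress their activity, and Nab2 is itself an EGR target. Nab2 fell, with 86.4 ± 2.92 CPM in IL-3 supernatant libraries and 116 ± 7.94 CPM in PBS supernatant libraries (SD, n = 3 each; log2 fold change -0.42, edgeR adjusted p = 6.0e-05). Nab1 did not pass, at 67.5 ± 2.17 CPM with IL-3 supernatant and 74.5 ± 6.25 CPM with PBS supernatant.

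The NR4A genes encode orphan nuclear receptors that act without a known ligand and whose transcript levels follow receptor signal strength. Nr4a1, on chromosome 15 (ENSMUSG00000023034, 101254269 to 101274795, plus strand), encodes NUR77. It stood at 227, 213 and 235 CPM with IL-3 supernatant and 205, 214 and 192 CPM with PBS supernatant, so that the lowest IL-3 supernatant library and the highest PBS supernatant library overlapped. The fitted log2 difference was 0.14 with an SE of 0.06 (edgeR adjusted p = 0.072). It passed without IL-3 supernatant replicate 2 (0.20, adjusted p = 0.026), without PBS supernatant replicate 2 (0.19, adjusted p = 0.048) and when libraries were scaled by size only (0.17, adjusted p = 0.045).

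Nr4a2, on chromosome 2 (ENSMUSG00000026826, 57106830 to 57124003, minus strand), encodes NURR1. Its values were 117, 116 and 125 CPM with IL-3 supernatant and 106, 90.9 and 90.3 CPM with PBS supernatant. The groups did not overlap, and PBS supernatant replicate 1 stood nearest to the IL-3 supernatant libraries. Nr4a2 rose by 0.32 in log2 units, with an SE of 0.07 (edgeR adjusted p = 0.0019).

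Nr4a3, on chromosome 4 (ENSMUSG00000028341, 48045153 to 48086447, plus strand), encodes NOR1. It was at 374, 378 and 398 CPM with IL-3 supernatant and 540, 424 and 391 CPM with PBS supernatant. The PBS supernatant group was spread widely, with replicate 1 far above the others and replicate 3 inside the range of the IL-3 supernatant group. The log2 fold change of -0.24 (SE 0.12) did not pass (edgeR adjusted p = 0.20). It was -0.09 without PBS supernatant replicate 1, and it passed without PBS supernatant replicate 3 (-0.33, adjusted p = 0.019) and with no filter on low counts (-0.23, adjusted p = 9.6e-04). Summed over the family, NR4A TPM were 398, 385 and 424 with IL-3 supernatant and 437, 368 and 359 with PBS supernatant, and the groups overlapped. Nr4a2 made up 19.8 ± 0.174% of that sum with IL-3 supernatant and 15.8 ± 0.920% with PBS supernatant (SD, n = 3 each), and Nr4a3 made up 36.0 ± 0.863% with IL-3 supernatant and 43.2 ± 3.63% with PBS supernatant.

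Atf3, on chromosome 1 (ENSMUSG00000026628, 191170296 to 191218039, minus strand), encodes a factor of the ATF/CREB family that mostly represses as a homodimer. Its transcript was at 136, 128 and 131 CPM with IL-3 supernatant, against 37.9, 36.2 and 29.5 CPM with PBS supernatant. The lowest IL-3 supernatant library was more than 3 times the highest PBS supernatant library. Atf3 rose by 1.93 on the log2 scale with an SE of 0.08 (edgeR adjusted p = 4.4e-11), at the 98.3 percentile of all tested genes. Ier3, on chromosome 17 (ENSMUSG00000003541, 35821684 to 35822923, plus strand), ranked last of the 10 by mean TPM with PBS supernatant. It was at 36.4, 38.3 and 28.6 CPM with IL-3 supernatant, against 8.74, 7.59 and 7.01 CPM with PBS supernatant. Replicate 3 was the lowest of each group, and the groups were far apart, with 2.14 in log2 units and an SE of 0.13 (edgeR adjusted p = 1.5e-09).

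**Figure D3:**
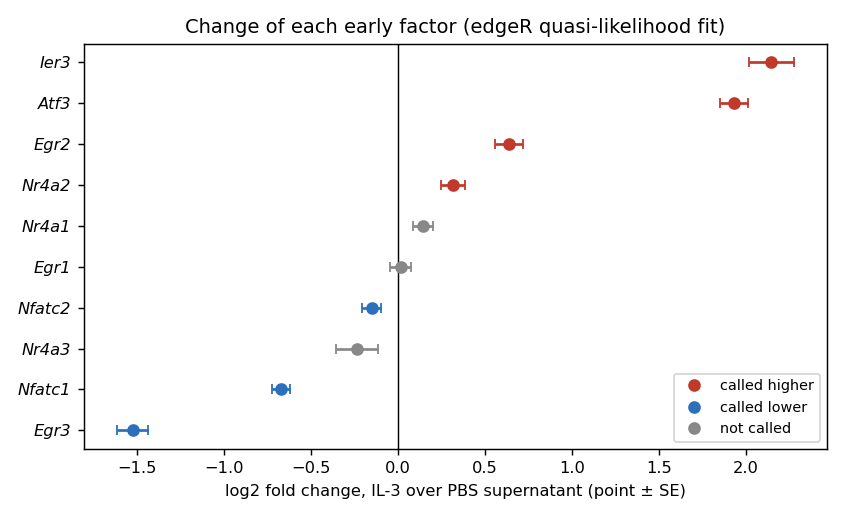
Log2 fold change of each early factor, IL-3 over PBS supernatant, from the edgeR fit over 12407 genes, with bars of 1 SE; red points were called higher, blue points lower and grey points not called. The points run from Egr3 at -1.53 to Ier3 at 2.14, and Nfatc2 at -0.15 is the called gene nearest to 0.

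Levels can be compared between genes only in TPM. With IL-3 supernatant the order by mean TPM was Nr4a1 (178 ± 10.1), Nr4a3 (145 ± 7.40), Atf3 (130 ± 4.06), Nr4a2 (79.7 ± 3.86), Nfatc1 (66.1 ± 2.64), Ier3 (59.5 ± 8.45), Egr1 (50.3 ± 0.199), Egr2 (47.0 ± 4.52), Egr3 (30.2 ± 2.76) and Nfatc2 (29.7 ± 0.581; SD, n = 3 each). In that order the ranges of Nfatc1 and Ier3, Ier3 and Egr1, Ier3 and Egr2, and Egr3 and Nfatc2 overlapped. With PBS supernatant the order was Nr4a3 (169 ± 33.3), Nr4a1 (158 ± 6.44), Nfatc1 (104 ± 6.29), Egr3 (85.7 ± 7.74), Nr4a2 (61.1 ± 4.46), Egr1 (48.6 ± 4.41), Atf3 (33.5 ± 4.40), Nfatc2 (31.9 ± 1.16), Egr2 (27.6 ± 1.62) and Ier3 (13.3 ± 1.75). There the ranges of Nr4a3 and Nr4a1, those of Atf3 and Nfatc2 and those of Atf3 and Egr2 overlapped. Atf3 thus ranked 3 among the 10 with IL-3 supernatant and 7 with PBS supernatant, and Egr3 ranked 9 with IL-3 supernatant and 4 with PBS supernatant.

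Promoter windows from RefSeq (GRCm38.p6) were used for 7 of the 10 members: Atf3, Egr2, Ier3, Nfatc2, Nr4a1, Nr4a2 and Nr4a3. No window was used for Egr1, Egr3 and Nfatc1, which are named only. The 250 bases before the start are printed for the 5 members whose RefSeq start lay within 50 bases of annotated transcript starts that together held over 50% of the gene's TPM in PBS supernatant replicate 2, the one library with isoform values. That share was 100% for Nr4a1, Ier3 and, after rounding, Atf3, and 89.2% for Egr2, and it was lowest for Nfatc2. Among the 5 are 3 genes that rose (Atf3, Ier3 and Egr2), 1 that did not pass (Nr4a1) and 1 that fell slightly (Nfatc2), so the sequences can be set beside unlike responses. Capitals mark matches on either strand to the CRE core CGTCA, the CArG box, the EGR motif GCGNGGGCG, the NFAT core GGAAA and the NF-kB consensus, which are known for binding CREB and ATF factors, SRF, EGR factors, NFAT and NF-kB.
Atf3, chr1:191183334-191183583, minus strand: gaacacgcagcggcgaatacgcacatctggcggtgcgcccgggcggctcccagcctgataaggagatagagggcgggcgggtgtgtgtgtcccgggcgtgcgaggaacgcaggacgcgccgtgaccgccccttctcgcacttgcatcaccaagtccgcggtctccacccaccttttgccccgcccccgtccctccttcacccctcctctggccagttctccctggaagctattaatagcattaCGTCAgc
Ier3, chr17:35821463-35821712, plus strand: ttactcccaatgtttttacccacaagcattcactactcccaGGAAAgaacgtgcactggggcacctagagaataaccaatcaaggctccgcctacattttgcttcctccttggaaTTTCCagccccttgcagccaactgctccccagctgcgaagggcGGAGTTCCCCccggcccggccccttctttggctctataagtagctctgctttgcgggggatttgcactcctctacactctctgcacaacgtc
Egr2, chr10:67537619-67537868, plus strand: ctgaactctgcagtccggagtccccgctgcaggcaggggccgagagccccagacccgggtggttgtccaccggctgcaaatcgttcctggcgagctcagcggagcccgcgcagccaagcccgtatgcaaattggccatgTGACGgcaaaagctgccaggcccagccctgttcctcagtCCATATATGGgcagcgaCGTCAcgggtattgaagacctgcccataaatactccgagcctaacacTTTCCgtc
Nr4a1, chr15:101266596-101266845, plus strand: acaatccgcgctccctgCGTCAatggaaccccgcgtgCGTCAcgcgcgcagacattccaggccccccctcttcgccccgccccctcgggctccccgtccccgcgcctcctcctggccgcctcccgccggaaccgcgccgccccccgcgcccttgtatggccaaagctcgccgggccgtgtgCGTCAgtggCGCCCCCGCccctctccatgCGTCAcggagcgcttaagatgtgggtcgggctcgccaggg
Nfatc2, chr2:168590366-168590615, minus strand: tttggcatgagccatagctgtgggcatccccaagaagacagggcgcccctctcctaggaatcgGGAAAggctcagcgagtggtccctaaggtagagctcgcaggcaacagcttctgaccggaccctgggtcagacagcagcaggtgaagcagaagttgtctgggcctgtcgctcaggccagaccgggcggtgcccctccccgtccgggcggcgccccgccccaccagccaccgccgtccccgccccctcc

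The window of Atf3 held 1 CRE core, 7 to 3 bases before the RefSeq start. That of Egr2 held a CArG box 72 to 63 bases before the start, a CRE core on each side of it and an NFAT core. That of Ier3 held an NF-kB consensus match 92 to 83 bases before the start and 2 NFAT cores. That of Nfatc2 held 1 NFAT core. The window of Nr4a1 held 4 CRE cores and 1 EGR motif. The windows of Nr4a2 and Nr4a3, not printed, held 4 CRE cores each. Annotated starts within 50 bases of these RefSeq starts held 13.9% of Nr4a2 TPM and 0.0% of Nr4a3 TPM in PBS supernatant replicate 2. These windows may therefore not lie before the starts used in these cells. Matches are common for short motifs: of 32851 windows of this length, 17.8% held at least 1 CRE core, 0.137% held 4 or more, 1.47% held a CArG box, 4.70% held the EGR motif, 55.6% held an NFAT core and 7.25% held the NF-kB consensus. No printed window held the full CRE TGACGTCA, which contains the CRE core on both strands, the AP-1 motif TGANTCA or the NR4A motif AAAGGTCA, which occur in 1.55%, 6.75% and 1.34% of windows. The matches are a description of letters. In the windows described here, Nr4a1 and Nr4a3, with 4 CRE cores each, are genes that did not pass the test. Nr4a2, with 4, Egr2, with 2, and Atf3, with 1, are genes that rose. Any link between matches and response was not tested.

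**Figure D4:**
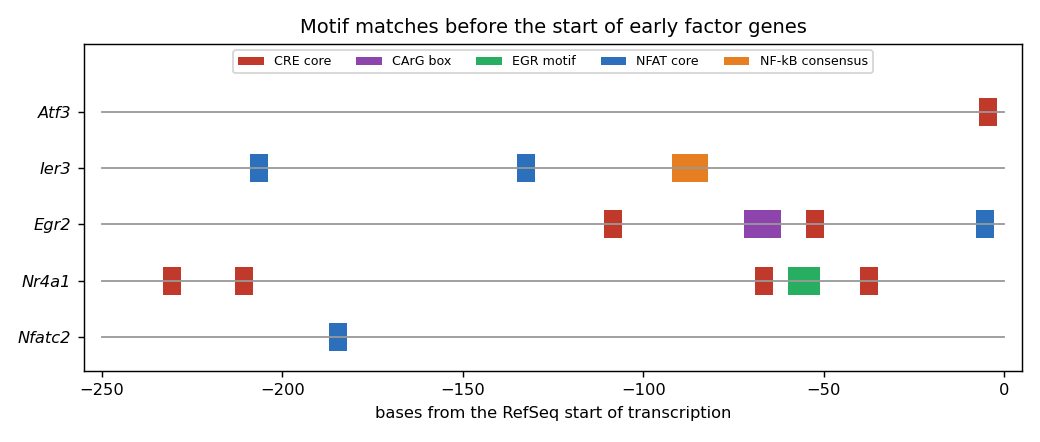
Position of motif matches in the 250 bases before the RefSeq start of 5 early factor genes, in bases from the start, with each motif in its own colour. Atf3 has a single CRE core next to the start, Egr2 a CArG box between CRE cores, Nr4a1 4 CRE cores, and Ier3 and Nfatc2 none.

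The genes around these factors were counted by pathway lists and read beside the 14.8% higher and 16.1% lower of all tested genes, whose median log2 fold change was -0.00467. The lists were chosen with earlier results of these data known, so these counts describe the lists and test nothing. In the T cell receptor proximal list, 13 of 18 genes fell and 2 rose, with a median log2 fold change of -0.33. Among those that fell were Cd3e, a signalling chain of the receptor (105 ± 3.38 CPM with IL-3 supernatant and 177 ± 5.98 CPM with PBS supernatant, SD, n = 3 each), and the adaptor gene Grap2 (log2 fold change -1.03). So did Csk (-0.46), whose kinase restrains Lck, and Ubash3b (-1.08), whose phosphatase restrains Zap70, so genes of activating and of restraining proteins fell alike. The genes that rose were Cd247, the zeta chain, and the adaptor Lcp2, at 0.30 and 0.31. Cd3e, Cd3d and Cd3g of this list are also among the T cell markers whose fall is given above, so the 2 results share genes.

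In the list of calcium entry, calcineurin and NFAT kinases, 9 of 25 tested genes fell and 3 rose, with a median of -0.07. Ppp3ca, a calcineurin catalytic subunit gene, fell, with 12.4 ± 1.41 CPM in IL-3 supernatant libraries and 24.7 ± 4.01 CPM in PBS supernatant libraries (SD, n = 3 each; log2 fold change -0.996, edgeR adjusted p = 1.3e-05). Ppp3cb, a more abundant catalytic subunit gene by CPM, did not pass (edgeR adjusted p = 0.16). It had 93.4 ± 11.5 CPM with IL-3 supernatant and 113 ± 17.0 CPM with PBS supernatant. The regulatory subunit gene Ppp3r1 did not pass either (edgeR adjusted p = 0.32). It had 129 ± 13.9 CPM with IL-3 supernatant and 117 ± 13.9 CPM with PBS supernatant. Like Ppp3ca, the calcium channel gene Orai2 (-0.98) and the IP3 receptor gene Itpr2 (-0.89) fell. The IP3 receptor gene Itpr1 rose, with 226 ± 6.40 CPM in IL-3 supernatant libraries and 76.4 ± 6.77 CPM in PBS supernatant libraries (1.57, edgeR adjusted p = 1.4e-11). Orai1, another calcium channel gene, rose as well (0.26, edgeR adjusted p = 0.012). It had 55.9 ± 2.87 CPM with IL-3 supernatant and 46.7 ± 1.80 CPM with PBS supernatant. Rcan1, a calcineurin inhibitor whose gene is an NFAT target, had 6.95, 8.56 and 9.75 CPM with IL-3 supernatant and 8.68, 9.09 and 8.72 CPM with PBS supernatant, and did not pass (edgeR adjusted p = 0.78).

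Of 16 genes of the ERK and SRF arm, 5 fell and 2 rose, with a median of 0.06. Rasgrp1, which links diacylglycerol to Ras in T cells, fell by 0.53 on the log2 scale, Creb1 by 0.51 and the SRF partner gene Elk4 by 0.48. Crem, a CREB relative, rose, with 106 ± 4.10 CPM in IL-3 supernatant libraries and 49.3 ± 6.82 CPM in PBS supernatant libraries (SD, n = 3 each; log2 fold change 1.10, edgeR adjusted p = 1.0e-07). Srf itself stood at 73.4 to 79.3 CPM with IL-3 supernatant and 81.1 to 84.3 CPM with PBS supernatant and did not pass (edgeR adjusted p = 0.16). Of 25 other immediate early genes, 11 rose and 7 fell, with a median of 0.13. Rgs2 (1.56), the AP-1 gene Fosl2 (1.35) and the MAP kinase phosphatase genes Dusp5 (0.98) and Dusp4 (0.83) were the called genes with the smallest p.

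**Figure D5:**
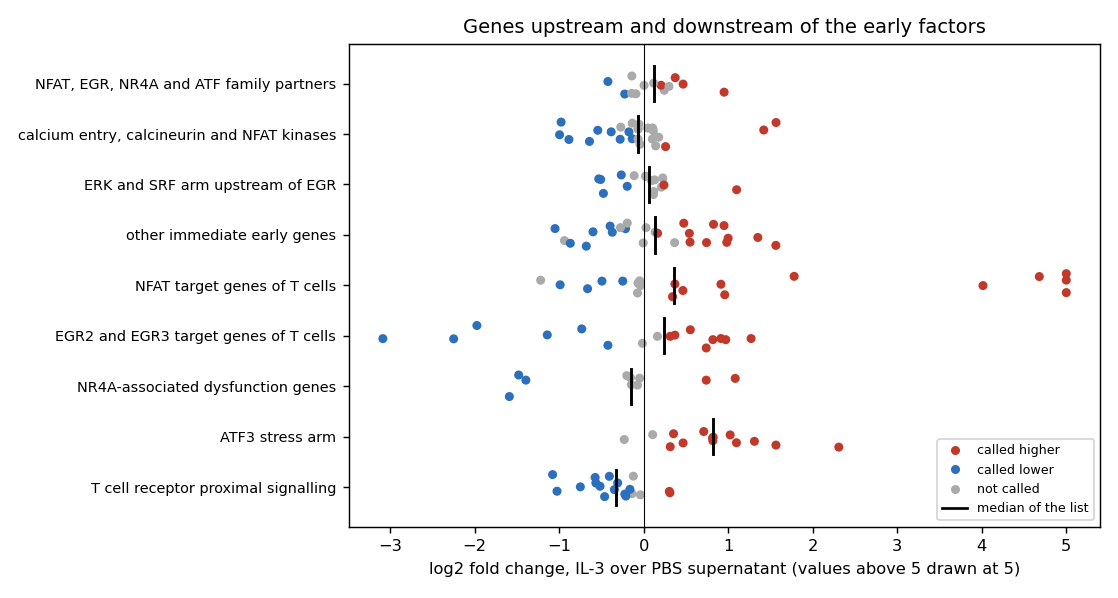
Log2 fold change, IL-3 over PBS supernatant, of every tested gene in 9 lists of genes around the early factors, with red for called higher, blue for called lower, grey for not called and a black line at each list's median. The receptor proximal list lies mostly below 0 (13 of 18 lower) and the ATF3 stress arm mostly above it (12 of 14 higher), and the target lists spread to both sides.

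The stress arm that shares regulators with Atf3 rose almost throughout. Of 14 tested genes of the integrated stress response 12 rose and none fell, with a median log2 fold change of 0.82. Atf4, the central factor of that response, was at 576 ± 24.0 CPM with IL-3 supernatant and 417 ± 21.1 CPM with PBS supernatant (SD, n = 3 each; log2 fold change 0.47, edgeR adjusted p = 4.8e-06). The ATF4 targets Asns (1.31), Sesn2 (1.02) and Trib3 (0.82) also rose. Any link between the genes of this list and the rise of Atf3 was not tested. Of the ATF family partners, Atf5 (0.95), Atf6 (0.37) and Atf2 (0.21) rose as well, Atf2 at an edgeR adjusted p = 0.039 that was lost in 10 of 17 alternatives, among them the fits without IL-3 supernatant replicate 1, 2 or 3 and without PBS supernatant replicate 2 or 3 (adjusted p from 0.065 to 0.16). Atf1 (-0.09), Atf7 (-0.14) and Jdp2 (0.30), a partner of ATF3 in repression, did not pass.

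The remaining family partners were Nfat5, the NFAT relative that responds to osmotic stress, and the early response genes Ier2 and Ier5. Nfat5 stood at 383, 379 and 350 CPM with IL-3 supernatant and 383, 269 and 288 CPM with PBS supernatant. PBS supernatant replicate 1 matched the highest IL-3 supernatant library, and the log2 fold change of 0.24 did not pass (edgeR adjusted p = 0.28); without that replicate it was 0.41 and passed (edgeR adjusted p = 4.1e-06). It also passed with no filter on low counts (0.25, edgeR adjusted p = 0.033). PBS supernatant replicate 1 was also the highest library of Nr4a3. Ier2 (0.12) and Ier5 (0.0037) did not pass.

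Genes known as targets of these factors went both ways. Of 20 NFAT targets of T cells 11 rose and 4 fell, with a median log2 fold change of 0.35. The cytokine genes Il13, Il3, Csf2 and Ifng were among those that rose. Ifng had 1701 ± 41.6 CPM in IL-3 supernatant libraries and 876 ± 57.3 CPM in PBS supernatant libraries (SD, n = 3 each). The 11 NFAT targets that rose went the opposite way to Nfatc1 and the 4 that fell went the same way. Any link between Nfatc1 transcript and these targets was not tested. Of 16 tested EGR2 and EGR3 targets 8 rose and 6 fell, with a median of 0.24. Dgka, whose kinase removes diacylglycerol, fell (log2 fold change -1.14), as did Nrgn (-3.09) and the BIM gene Bcl2l11 (-1.97), whereas Cdkn1a, a cell cycle inhibitor, rose (1.27). Of 10 tested genes of dysfunctional T cells tied to NR4A factors 3 fell and 2 rose, with a median of -0.15. Tox fell, with 8.62 ± 0.373 CPM in IL-3 supernatant libraries and 26.0 ± 2.17 CPM in PBS supernatant libraries (SD, n = 3 each), Entpd1 fell by 1.48 on the log2 scale, and Batf (1.08) and Lag3 (0.74) rose. Across the 9 lists, 8 genes, among them Lag3, Fasl and Nab2, stand in 2 lists each, so the counts share genes.

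Genes with the most similar pattern were sought among 9721 tested genes whose mean log2 CPM reached 2, by the root mean square difference of mean-centred log2 CPM over the 6 libraries. Nearest to Egr2 were Zfp46 (0.05), Tnfsf11 (0.06), which encodes the cytokine RANKL, and the NF-kB inhibitor gene Nfkbia (0.06). Nearest to Nr4a1 were Myo1c, Ddx28 and Nop14, at 0.02 each. Nearest to Atf3 were the serpin genes Serpinb9 (0.06) and Serpinb6b (0.10) and the prolyl hydroxylase gene Egln3 (0.10). Nearest to Nfatc1 were Abhd16a (0.02), Sept6 (0.03) and Hivep3 (0.03).

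Isoform values were used for PBS supernatant replicate 2 alone. There a single isoform held 100.0% of the TPM of Egr3, Ier3 and Nr4a1 and, after rounding, of Atf3. Nr4a3 was split between its leading isoform and the next, at 56.4% and 37.4% of its TPM, and the leading isoform held 53.0% of Nr4a2, 59.3% of Nfatc2 and 64.6% of Nfatc1. These shares describe 1 library and were not compared between groups.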

How the data were processed

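Poly(A) RNA of mouse CD8 T cells was sequenced in 3 IL-3 supernatant and 3 PBS supernatant libraries. The authors deposited RSEM expected counts per gene, and TPM per gene for 5 libraries and per isoform for PBS supernatant replicate 2. The submitters' processing notes name RSEM 1.2.12, Bowtie2 2.2.0, edgeR 3.20.9 and GRCm38; no source used here gives their roles, the annotation or the strandedness. TPM deposited by the authors were used as they stand for levels between genes, with isoforms summed in PBS supernatant replicate 2.

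Expected counts were rounded, filtered with filterByExpr and scaled with TMM in edgeR 4.0.16, and tested with its robust quasi-likelihood fit of the 2 groups, with Benjamini-Hochberg adjustment over 12407 of 46517 genes. A count of 0 allows 0.135 to 0.173 CPM (3 counts of the total; counting error only). The common biological coefficient of variation was 0.0939. Alternatives were other scalings and filters, DESeq2 1.42.0, limma 3.58.1 (voom on counts; log2(TPM + pseudocount)), a replicate block and leaving out each library; 2 were added after seeing the data. Coordinates come from GENCODE M21 (GRCm38), promoter windows from RefSeq. No 2 libraries of the same group agreed within counting noise.

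Named were all 10 members, their tested family partners, the 4 called genes with the smallest p in each other list and the 3 most similar genes for Egr2, Nr4a1, Atf3 and Nfatc1. Rcan1, Srf, Cd247, Lcp2, Ppp3cb, Ppp3r1 and Orai1 were chosen after their values were seen. Members and lists were chosen with earlier results of these data known, and motifs and printed windows after sequences and fold changes had been seen.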

Additional observations from a re-analysis of the deposited data

How the results depend on the processing

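Egr2, Egr3, Nfatc1, Atf3 and Ier3 kept their direction and call in all 17 alternatives. Of 170 member values, 145 kept direction and call. With no filter on log2(TPM + 1) of 5 libraries, 669 genes were called higher and 820 lower, and at an adjusted p below 0.01, 1217 were higher. Leaving out 1 library gave 1456 to 1916 genes higher and 1601 to 2102 lower, with 4 to 5 members higher and 2 to 3 lower. Leaving out 1 library, the log2 fold change of Egr1 ran between -0.0199 (without PBS supernatant replicate 2) and 0.0418, and that of Ier5 between -0.0131 (without IL-3 supernatant replicate 1) and 0.0394. Egr1 turned to -0.0227 on log2(TPM + 1) with or without the filter and -0.0231 on log2(TPM + 0.1), and Ier5 to -0.0134 on log2(TPM + 1) with or without the filter and -0.0138 on log2(TPM + 0.1). The cause was not tested. Of the 44 family partners and list genes named by rule, 33 kept direction and call in all 17 alternatives. The genes named for a similar pattern, and Rcan1, Srf, Cd247, Lcp2, Ppp3cb, Ppp3r1 and Orai1, were not among the 44. In the unfiltered fit on log2(TPM + 1) of 5 libraries the calls of Nr4a2 (adjusted p = 0.079), Nfatc3 (0.071), Atf2 (0.53), Atf5 (0.11), Atf6 (0.14), Orai2 (0.058), Ppp3ca (0.052), Creb1 (0.24), Entpd1 (0.0503) and Trib3 (0.067) were lost with the direction kept, and Entpd1 stood at -0.73 on that scale. Same-numbered replicates deviated together with correlations of -0.15, 0.05 and 0.25, and differently numbered ones with -0.28 to 0.26. With 3 libraries per group, such values cannot decide whether same-numbered replicates share an animal or a day. With the replicate block 1634 genes were higher and 1776 lower, with 4 members higher and 2 lower. In that fit Nfatc2 (edgeR adjusted p = 0.093) and Atf2 (0.060) lost their calls and Nfat5 passed (0.26, edgeR adjusted p = 0.048). With 3 libraries per group and unknown origin of replicates, small changes such as those of Nfatc2 and Nr4a1 are at the limit of what these data resolve.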
